A study of Mus musculus with 6 samples.

Results

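Heme and iron handling genes were examined in osteocyte-enriched cortical bone treated with parathyroid hormone (PTH). The group holds 10 genes, the globins *Hba-a1* and *Hbb-b1*, the heme synthesis enzymes *Alas1*, *Alas2* and *Fech*, the heme-degrading enzyme *Hmox1*, the ferritin chains *Fth1* and *Ftl1*, the transferrin receptor *Tfrc* and the iron exporter *Slc40a1*. They were found by gene symbol, which gave 26 probes of the 45281 on the array and 10 of its 31508 gene symbols. The genes were chosen by the measured difference between PTH and control on these arrays, since both globins were among the genes lowest with PTH, so the difference between PTH and control in these 10 genes is described without a test.

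The study asked how PTH alters gene expression in osteocytes that remain within their bone matrix. Femurs and tibias of 3 month old C57BL6 mice were stripped of muscle and epiphyses, flushed of marrow and digested with collagenase and trypsin, which leaves tubes of cortical bone. In both groups the tubes were cultured overnight and moved to fresh medium, and then received either no hormone (control, 3 arrays) or 250 nM Pth 1-34 (PTH, 3 arrays) for 24 hours. Each experiment pooled the tubes of 4 to 5 mice, with about 10 bones in a preparation, and RNA was hybridized to Illumina mouse bead arrays. Neither the labels nor the methods say that the replicates were separate cultures or animals, so the p-values below measure the spread between arrays, which may be technical. The tubes were a mixed tissue. Of 11 osteocyte and osteoblast markers 10 were above background, 9 of them on all 6 arrays, whereas *Fgf23*, a hormone of mature osteocytes, was above background on none, and genes of neutrophils, macrophages and platelets were also above background.

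Heme is an iron-containing ring that is built partly in mitochondria and partly in the cytosol, and developing red cells make most of it for hemoglobin. Cells take up iron bound to transferrin, store the excess in ferritin and release it through ferroportin. Macrophages of the marrow, liver and spleen degrade the heme of old red cells and return its iron to the blood. Mature red cells of mammals have no nucleus, whereas the younger reticulocytes still carry globin mRNA.

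The promoters of globins are shown because, among the heme and iron handling genes chosen here, the globins differed most between the groups by their brightest probes. The stretches end at the base before the transcription start and come from RefSeq (GRCm38.p6). Capitals mark CACCC, the CCAAT box and the TATAA box on either strand, where a CCAAT box on the opposite strand reads ATTGG. The motif GATAA, the core bound by GATA factors, was searched as well and has no match in these stretches. *Hba-a1* lies on the plus strand at chr11:32283552-32283671. For the beta globins the table holds *Hbb-bs* and *Hbb-bt*, the adult beta globin genes of C57BL/6 mice, on the minus strand at chr7:103827929-103828048 and chr7:103813924-103814043. The array has no probe under these symbols, so no difference was measured for *Hbb-bs* and *Hbb-bt* by symbol.
Hba-a1: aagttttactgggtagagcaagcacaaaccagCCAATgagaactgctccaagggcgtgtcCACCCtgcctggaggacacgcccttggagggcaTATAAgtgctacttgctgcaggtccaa
Hbb-bs: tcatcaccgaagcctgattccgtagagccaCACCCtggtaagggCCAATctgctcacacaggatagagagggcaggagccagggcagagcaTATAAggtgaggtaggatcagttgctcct
Hbb-bt: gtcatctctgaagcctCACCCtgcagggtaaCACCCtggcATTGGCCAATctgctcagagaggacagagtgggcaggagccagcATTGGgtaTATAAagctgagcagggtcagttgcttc

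The TATAA match began 27 bases before the start in *Hba-a1*, 29 in *Hbb-bs* and 28 in *Hbb-bt*. The forward CCAAT match began 88, 76 and 75 bases before the start, respectively. In the longer windows of 300 bases around each start, all 4 motifs were present in *Hba-a1*, *Hba-a2*, *Hbb-bs* and *Hbb-bt*, against 1.51% of 32851 windows in the table. Singly, CACCC was found in 57.5% of those windows, CCAAT in 37.4%, TATAA in 24.9% and GATAA in 25.4%. None of the windows of *Alas1*, *Alas2*, *Fth1*, *Ftl1* and *Tfrc* held all 4, and no window of *Fech*, *Hmox1* and *Slc40a1* was compared. The 4 motifs were chosen by hand, so nothing is read from these shares. A match is a description of these letters and does not show that a factor binds. The windows of *Hba-a1* and its neighbor *Hba-a2* shared an identical run of 297 of 300 bases. Which of these near-identical copies each globin probe measures is uncertain, because the probe sequences were not used here.

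The signals below are normalized log2 values, that is background-corrected and quantile-normalized intensities, and a difference is the PTH mean minus the control mean on that scale. A probe counts as above background at a detection p under 0.05, and probes that reached this on 3 or more of the 6 arrays were tested. Of the 26 probes 22 met this condition and 19 were above background on all 6 arrays, while 2 were above it on none. The PTH arrays all lay below the control arrays in 12 of the 22 probes and above them in 1, where the shares over all 16214 probes tested were 10.5% and 10.3%. The limit used for other genes, a limma adjusted p under 0.05, would take in 10 of the 22, against 1.61% of all probes (0.993% lower and 0.617% higher with PTH). Counted by gene, 9 of the 10 genes had a tested probe, and *Alas2* did not. By the brightest probe of each gene, the PTH arrays all lay below the control arrays for 4 genes (*Hba-a1*, *Hbb-b1*, *Hmox1* and *Slc40a1*) and above for 1 (*Alas1*), where over all 11979 genes tested these shares were 10.8% below and 11.1% above. In the other 4 genes the groups overlapped. The globins were the only 2 of the 10 genes within the limit, which 1.73% of all genes met, 1.04% lower and 0.685% higher with PTH. The contrast chose the genes, so nothing is read from these counts. The median difference of the 9 genes was -0.02, against 0.01 for all genes tested, where the quartiles were -0.16 and 0.17.

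**Figure D1:**
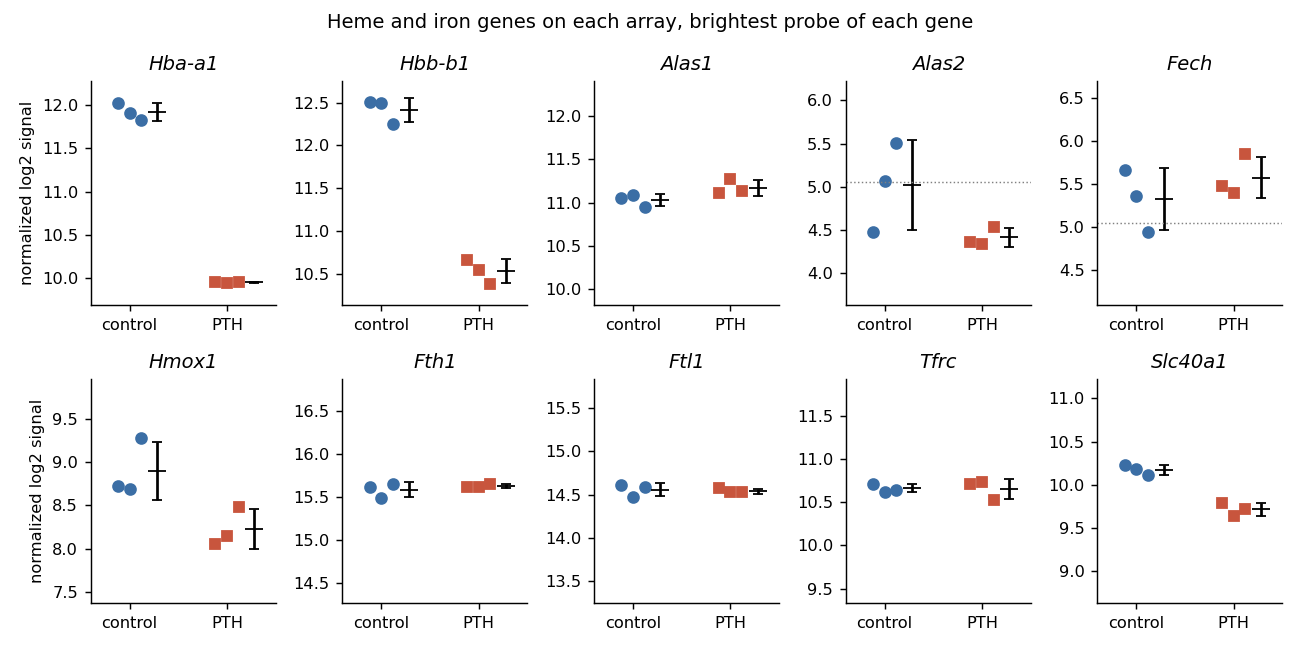
Normalized log2 signal (vertical axis) of each of the 10 genes on the 3 control arrays (circles) and the 3 PTH arrays (squares), with the mean and SD of each group as a bar and the lowest signal above background as a dotted line. The panels span about the same number of log2 units, and the wide gap in both globins, from 11.92 to 9.95 for Hba-a1 and from 12.42 to 10.53 for Hbb-b1, stands beside the overlapping groups of Fth1, Ftl1 and Tfrc.

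*Hba-a1*, which encodes the alpha chain of adult hemoglobin, has 1 probe (ILMN_1212702). Its signal as deposited, before any correction, was 3410, 3898 and 3713 in control tubes and 891.4, 1096 and 1479 with PTH. After normalization the control arrays read 12.03, 11.91 and 11.83, and the PTH arrays 9.95, 9.93 and 9.95. All 3 PTH arrays thus lay far below all 3 control arrays, and the spread of the deposited signal among the PTH arrays was gone after normalization. The means were 11.92 ± 0.10 (SD, n = 3) and 9.95 ± 0.011 (SD, n = 3), a difference of -1.98 (SE 0.12), so that control exceeded PTH 3.94-fold. Counted from the lowest difference among the 11979 genes, *Hba-a1* ranked 3 and *Hbb-b1* ranked 4. In these pooled tissues, fewer cells of a type and less RNA per cell cannot be told apart.

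*Hbb-b1* encodes the beta chain and has 11 probes. Its brightest probe (ILMN_2545963) gave 12.50, 12.50 and 12.25 in control tubes and 10.66, 10.55 and 10.38 with PTH. The means were 12.42 ± 0.14 (SD, n = 3) and 10.53 ± 0.14 (SD, n = 3), a difference of -1.89 (SE 0.14) and a 3.70-fold higher control signal. In the deposited signal the same probe read 4703, 5658 and 4811 against 1413, 1637 and 1942. The gap between the groups was seen with most of its other probes as well. In 9 of the 11 probes all PTH arrays lay below all control arrays, with a median difference of -1.85 and a range from -1.95 to -1.55, or 2.94-fold to 3.87-fold higher in control. These 9 probes carry 1 gene symbol and are not replicates.

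The remaining *Hbb-b1* probes were dim or at background. ILMN_1235372 had deposited signals of 149.1, 167.4 and 181.9 in control and 127.7, 144.4 and 186.2 with PTH, and the groups overlapped after normalization as well (log2 difference -0.44, SE 0.21). ILMN_1228877 was above background on no array. The smallest difference among the 9 brighter probes belonged to the dimmest of them, ILMN_2544056, at 9.64 ± 0.0089 (SD, n = 3) in control and 8.08 ± 0.28 (SD, n = 3) with PTH.

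**Figure D2:**
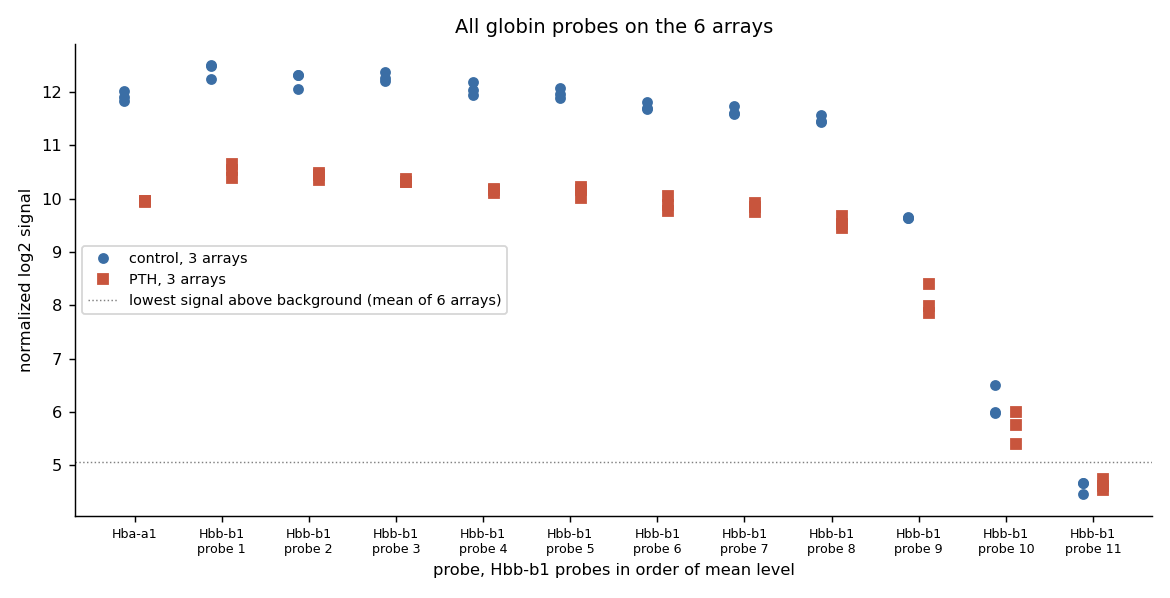
Normalized log2 signal (vertical axis) of the Hba-a1 probe and the 11 Hbb-b1 probes in order of mean level (horizontal axis) on the 3 control arrays (circles) and the 3 PTH arrays (squares), with the lowest signal above background as a dotted line. In Hba-a1 and in 9 Hbb-b1 probes all PTH arrays lie below all control arrays, with group means that differ by -1.95 to -1.55 for Hbb-b1, while the 2 dimmest probes overlap.

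The distance between both globins varied little beside the gap between the groups. Within the PTH arrays *Hba-a1* read 9.95, 9.93 and 9.95, while the brightest *Hbb-b1* probe read 10.66, 10.55 and 10.38. *Hba-a1* minus the brightest *Hbb-b1* probe ranged only from -0.71 to -0.43 over the 6 arrays, and the signals of both correlated with r = 0.99 over these arrays, which is described without a test because most of that spread is the gap between the groups. The 5 genes most like the mean of both globins, by Pearson correlation over the 6 arrays among 9618 genes above background on all of them, were *Ibsp*, *Rgs16*, *Cd177*, *F830002E14Rik* and *Trib3*, each with r = 0.998. *Ibsp* encodes bone sialoprotein of the bone matrix, *Rgs16* a regulator of G protein signaling, *Cd177* a neutrophil surface protein and *Trib3* a pseudokinase. Their differences were -2.01, -1.48, -0.77, -1.34 and -0.82, respectively. After the group means were removed, r with the globins was 0.82, 0.88, 0.73, 0.54 and 0.90. The gap between the groups sets most of the first figures, and 6 arrays carry little information on the second.

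Red cell markers were at or near background in both groups. Of 19 red cell genes 18 were in the table, 11 of them were above background on no array and only 3 were tested. Among the 11 were *Epb42* of the membrane skeleton, *Klf1* and *Gata1*, transcription factors of the lineage, and *Rhd*, *Kel*, *Ermap*, *Car1*, *Trim10*, *Icam4* and *Add2*. *Ahsp*, the chaperone of free alpha globin, was above background on 3 control arrays and 1 PTH array. It read 5.26, 5.14 and 5.39 in control and 4.50, 4.76 and 5.02 with PTH, so that every PTH array lay below control, and it did not pass the test (difference -0.51, SE 0.16, limma adjusted p = 0.204). *Epor*, the erythropoietin receptor, overlapped between groups (difference -0.02). *Slc4a1*, the anion exchanger of red cells, was above background on 1 control array, *Sptb* on 2 control arrays, *Ank1* on 1 array of each group and *Rhag* on 1 PTH array. None of the 3 tested red cell genes passed in limma. At an unadjusted p under 0.05 there was 1 lower and 0 higher, against 7.39% and 7.51% of all genes. The summed level of the 18 genes in the table (log2 of the sum of their linear signals), most of it background, ranged from 8.94 to 8.95 in control and from 8.78 to 8.98 with PTH.

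The 13 neutrophil genes tested were all lower with PTH as well, though not all were called. At an unadjusted p under 0.05, 12 were lower and 0 higher (limma), against 7.39% and 7.51% of all genes. In 11 of the 13 every PTH array lay below control, against 10.8% of all genes. Of 13 neutrophil genes tested 7 were called lower and 0 higher (limma), against 1.04% and 0.685% of all genes, with a median difference of -0.72 and a range from -1.02 to -0.14. Their summed log2 level ranged from 15.83 to 15.85 in control and from 15.19 to 15.37 with PTH. The called genes included *Ctsg*, a granule protease (-1.02, limma adjusted p = 0.00774), and *Mpo*, myeloperoxidase, a heme enzyme of granules (-0.91, limma adjusted p = 0.0259), whereas the brightest genes of the list, *S100a8* (-0.43, limma adjusted p = 0.192) and *S100a9* (-0.59, limma adjusted p = 0.144), did not pass. The 7 calls, which include *Lcn2* and *Ltf* described below, became 1 to 3 with 1 array left out, 0 with median scaling and 0 with the replicate number as a block (limma), while the median stayed below 0. Only *Elane* and *Mmp8* of this list were above background on no array. Of 6 megakaryocyte and platelet genes 0 were called (limma). At an unadjusted p under 0.05, 3 were lower and 0 higher (limma), where the shares over all genes tested were 7.39% and 7.51%. All 6 differences were below 0 and their median was -0.36, with summed levels of 11.72 to 11.85 in control and 11.40 to 11.46 with PTH. The brightest of these over the 6 arrays were *Pf4* (-0.29), *Ppbp* (-0.57) and *Gp1bb* (-0.15), and *Itga2b* had the lowest difference (-0.84). The differences of the globins exceeded in size those of every neutrophil and platelet gene tested, and whether these cells had a part in the difference of the globins was not tested.

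Markers of the other cells differed in direction from list to list. Of 12 macrophage genes 0 were called (limma). At an unadjusted p under 0.05, 5 were lower and 2 higher (limma), where the shares over all genes tested were 7.39% and 7.51%. The median was -0.18, with summed levels of 14.01 to 14.23 in control and 13.92 to 14.11 with PTH. Among the brightest, *Lyz2* differed by 0.07, *C1qb* by -0.72 and *Cd68* by -0.02, and *Cd163*, the receptor that clears hemoglobin bound to haptoglobin, was above background on no array. Of 6 osteoclast genes 3 were called higher, *Acp5* (0.84), *Oscar* (1.05) and *Mmp9* (0.73), and 0 lower (limma), against 0.685% and 1.04% of all genes. When any 1 array was left out, 0 were called. At an unadjusted p under 0.05 all 6 were higher (limma). In all 6 every PTH array lay above control, as in 11.1% of all genes. The brightest of the list, *Ctsk*, the collagen-degrading protease of osteoclasts, did not pass (0.36, limma adjusted p = 0.328). The median of the list was 0.79 and its summed levels were 13.55 to 13.72 in control and 13.99 to 14.34 with PTH. Of 10 osteocyte and osteoblast genes 4 were called lower and 0 higher (limma), or 2 to 3 lower with 1 array left out. The shares called over all genes were 1.04% and 0.685%. At an unadjusted p under 0.05, 9 were lower and 1 higher (limma). *Pdpn*, podoplanin, was higher on every PTH array but did not pass (0.70, limma adjusted p = 0.056). The median of the list was -0.95, with summed levels of 14.99 to 15.07 in control and 14.29 to 14.40 with PTH. Its differences ranged from -2.01 to 0.70. The lowest was that of *Ibsp* (-2.01, limma adjusted p = 0.000747), which exceeded in size those of both globins. The brightest genes of the list were *Col1a1* (-0.54, limma adjusted p = 0.0798), *Sp7* (-0.81, limma adjusted p = 0.0259) and *Mepe* (-1.02, limma adjusted p = 0.0128). B lymphocyte genes (median -0.10), endothelial genes (-0.20) and the only skeletal muscle gene tested (-0.08) gave no calls in limma, and at an unadjusted p under 0.05 they gave 2, 1 and 0 lower and 1, 1 and 0 higher.

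**Figure D3:**
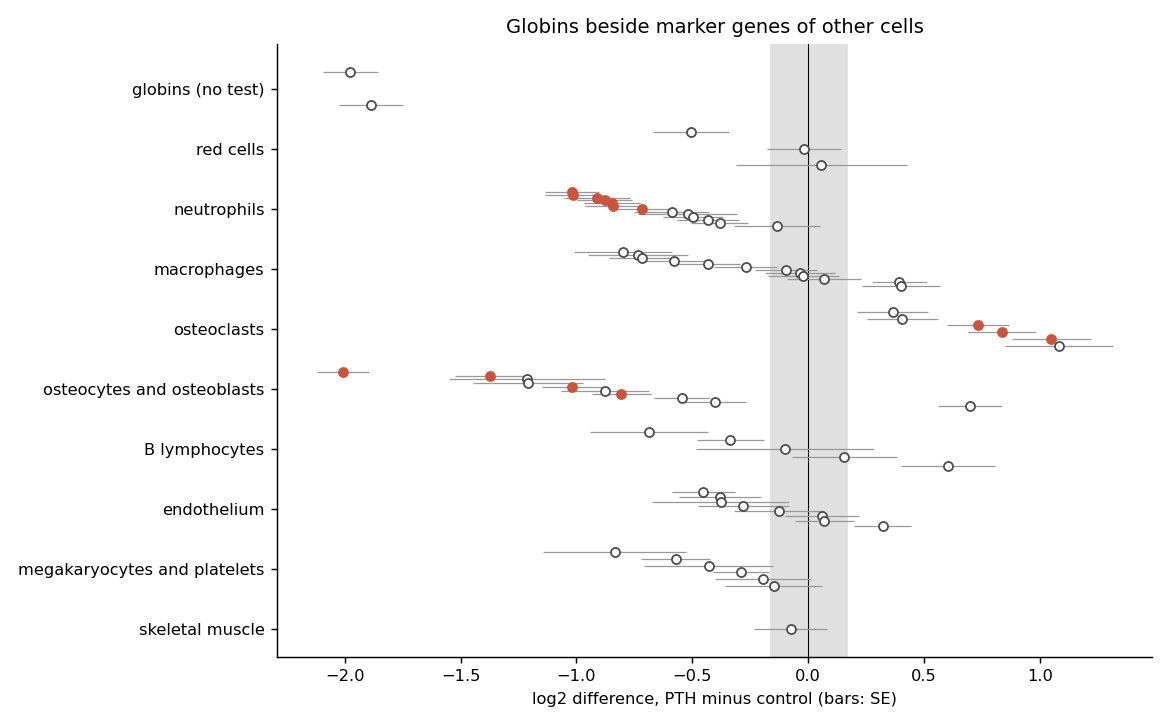
Log2 difference, PTH minus control (horizontal axis), of the 2 globins and of each tested marker gene by cell type (rows), with bars for the SE, filled points for genes called at a limma adjusted p under 0.05 and a gray band for the quartiles of all genes. The globins lie near -1.98 and -1.89, the red cell gene Ahsp at -0.51, and the neutrophil genes between -1.02 and -0.14.

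Among the enzymes of heme synthesis no member was lower with PTH on all arrays. *Alas1* encodes the aminolevulinate synthase of most tissues, the first and rate-limiting step. It read 11.06, 11.08 and 10.95 in control and 11.10, 11.27 and 11.13 with PTH, so that every PTH array lay above control, though narrowly, and in the deposited signal the groups overlapped (1811, 2245 and 2039 against 1897, 2618 and 3180). The difference was 0.14 (SE 0.12), and 0.28 with median scaling, between means of 11.03 ± 0.07 (SD, n = 3) and 11.17 ± 0.09 (SD, n = 3). *Alas2*, the form of this enzyme that red cell precursors use, was above background on 2 control arrays and on 0 PTH arrays. It read 4.47, 5.07 and 5.51 in control and 4.36, 4.34 and 4.53 with PTH, so that the groups overlapped, and no fold is given because the control mean was not above the mean, over the PTH arrays, of the lowest signal above background on each. *Fech*, ferrochelatase, which inserts iron into the ring, had 3 tested probes that were all dim and all overlapped between the groups, with differences of 0.25 (SE 0.21), 0.26 (SE 0.30) and 0.38 (SE 0.22). The first of these ranged from 0.06 without control array 3 to 0.42 without control array 1. Its other probe was above background on 1 array of each group.

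The 11 further enzymes and transporters of heme synthesis that were tested gave no call. At an unadjusted p under 0.05, 1 was lower and 1 higher (limma), against 7.39% and 7.51% of all genes. The median difference of the 11 was -0.01, and 10 of the 11 were above background on all 6 arrays. Among these 10 the lowest difference was that of *Uros*, uroporphyrinogen synthase (-0.26, limma adjusted p = 0.588). Of the 8 other globin genes on the array, 6 were above background on no array and only *Cygb*, cytoglobin of fibroblast-like cells, was tested (0.23, limma adjusted p = 0.739). Among these 6 was *Hbb-b2*, another beta globin, with means of 4.44 in control and 4.63 with PTH.

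*Hmox1*, heme oxygenase, opens the heme ring and frees its iron. It read 8.73, 8.69 and 9.29 in control and 8.05, 8.15 and 8.49 with PTH. The groups did not overlap, with PTH lower, and the arrays numbered 3 were the highest of both groups. The means were 8.90 ± 0.34 (SD, n = 3) and 8.23 ± 0.23 (SD, n = 3), a difference of -0.67 (SE 0.20), or 1.59-fold higher in control. In the deposited signal the groups of *Hmox1* overlapped, at 432.1, 509.6 and 705.1 against 304.4, 380.1 and 599.3. Of 10 other genes for heme breakdown, binding and transport, 1 was called lower and 0 higher (limma), against 1.04% and 0.685% of all genes. Their median difference was -0.10. The constitutive oxygenase *Hmox2* differed by -0.03 (limma adjusted p = 0.948). The called gene was *Hp*, haptoglobin, which binds free hemoglobin in plasma. It read 9.01, 8.66 and 8.77 in control and 7.77, 7.99 and 7.73 with PTH. *Hp* fell by 0.99 on the log2 scale (SE 0.15, limma adjusted p = 0.0211), and its 2 other probes differed by -1.01 (limma adjusted p = 0.0105) and -0.72 (limma adjusted p = 0.402). With any 1 array left out the call was lost, with limma adjusted p between 0.0577 and 0.0906, as it was with the replicate number as a block (limma adjusted p = 0.0805). At the other end of the list stood *Nfe2l2*, a regulator of oxidative stress genes (0.25, limma adjusted p = 0.532).

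The ferritins, whose heavy (*Fth1*) and light (*Ftl1*) chains form the shell that stores iron, were among the brightest probes on every array. *Fth1* held ranks 1 to 3 with one probe and 5 to 8 with the other. The first read 15.61, 15.49 and 15.65 in control and 15.61, 15.61 and 15.65 with PTH, a difference of 0.04 (SE 0.12), and the other differed by -0.01 (SE 0.11). Quantile normalization sets the value of such a probe by its rank, and cyclic loess gave -0.15 for *Fth1*, so its direction is not settled. *Ftl1* read 14.61, 14.47 and 14.58 in control and 14.57, 14.52 and 14.52 with PTH (difference -0.02, SE 0.12), which became 0.08 with median scaling. The groups overlapped for both genes. A second *Ftl1* probe was above background on no array.

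*Tfrc*, the receptor that takes up transferrin-bound iron, did not separate the groups. It read 10.72, 10.63 and 10.65 in control and 10.71, 10.74 and 10.53 with PTH, a difference of -0.0025 (SE 0.12) that became 0.15 with median scaling, and its other probe differed by 0.20 (SE 0.13). *Slc40a1*, ferroportin, the exporter of cellular iron, was lower on every PTH array. It read 10.22, 10.18 and 10.11 in control and 9.79, 9.63 and 9.72 with PTH, with means of 10.17 ± 0.06 (SD, n = 3) and 9.72 ± 0.08 (SD, n = 3). The difference was -0.46 (SE 0.12), or 1.37-fold higher in control. In the deposited signal PTH array 3 (1291) lay above all 3 control arrays (1052, 1254 and 1179), so the separation of *Slc40a1* rests on the normalization.

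Across the wider pathway few genes differed. Of 96 further heme and iron genes 74 were in the table and 54 were tested. Of these 54, 3 were called lower (5.56%) and 0 higher (limma), against 1.04% and 0.685% of all genes. At an unadjusted p under 0.05 there were 6 lower and 3 higher (limma). Of all genes 14.9% met that limit, 7.39% lower and 7.51% higher. Their median difference was 0.03, with 24 below 0 and 30 above. In 7 genes (13%) all PTH arrays lay below control and in 5 (9.26%) above, close to the 10.8% and 11.1% over all genes.

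Besides *Hp*, the called genes were *Lcn2* and *Ltf*, both counted with iron uptake. *Lcn2*, lipocalin 2, captures bacterial siderophores that carry iron, and read 11.26, 11.29 and 11.13 in control against 10.34, 10.45 and 10.36 with PTH. It fell by 0.84 on the log2 scale (SE 0.12, limma adjusted p = 0.0173). *Ltf*, lactoferrin, binds iron in neutrophil granules and secretions, and read 13.09, 13.17 and 12.95 against 12.50, 12.35 and 12.22. It fell by 0.72 on the log2 scale (SE 0.13, limma adjusted p = 0.0468), while its second probe differed by -0.39 (limma adjusted p = 0.315). Both *Lcn2* and *Ltf* are also in the neutrophil list. Like that of *Hp*, neither call held when any 1 array was left out, with limma adjusted p between 0.0533 and 0.0906 for *Lcn2* and between 0.0854 and 0.172 for *Ltf*, although both stayed lower with PTH throughout.

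Of the 10 iron uptake genes tested, with a median of -0.05, 2 were called lower, *Lcn2* and *Ltf*, and 0 higher (limma). The shares called over all genes were 1.04% and 0.685%. The highest difference was that of *Slc11a2*, the divalent metal transporter (0.15, limma adjusted p = 0.763). The remaining iron lists gave no call. Of 5 genes for storage and export (median 0.12), 0 were lower and 1 higher at an unadjusted p under 0.05 (limma). Over all genes these shares were 7.39% and 7.51%. The ferroxidases that act with ferroportin stood at the ends of this list. *Cp*, ceruloplasmin, differed by -0.36 (limma adjusted p = 0.357) and *Heph*, hephaestin, by 0.44 (limma adjusted p = 0.234). All PTH arrays lay below control for *Cp* and above for *Heph*, as in 10.8% and 11.1% of all genes. Of 6 iron sensing genes (median -0.11), 1 was lower and 0 higher at an unadjusted p under 0.05 (limma). *Fbxl5*, which marks iron regulatory protein for degradation, differed by -0.49 (limma adjusted p = 0.273) and *Hfe*, a partner of the transferrin receptors, by 0.08 (limma adjusted p = 0.88). *Hamp*, hepcidin, the hormone that closes ferroportin, was above background on no array. Of 11 genes for mitochondrial iron and iron-sulfur clusters 10 had a difference above 0, where 49.2% of all genes lay below 0. Their median was 0.07. In 3 (27.3%) all PTH arrays lay above control and in 0 below, against 11.1% and 10.8% of all genes. At an unadjusted p under 0.05, 0 were lower and 1 higher (limma). The 11 ranged from *Hspa9*, a mitochondrial chaperone (-0.07, limma adjusted p = 0.854), to *Fdxr*, ferredoxin reductase (0.41, limma adjusted p = 0.474).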

How the data were processed

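RNA was measured on 3 control and 3 PTH Illumina bead arrays, grouped by the sample labels. The authors deposited for each probe and array a linear signal intensity, neither normalized nor background subtracted, and a detection p-value against the negative controls of the array. GenomeStudio is named in the submitters' processing notes, and the slide of an array is not given in the sources used here. All columns of per-sample values were used. A column of detection p-values has no sample name of its own and was taken to belong to the signal column on its left.

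Signals were corrected by normexp through the detection p-values with an offset of 16, quantile normalized and taken to log2 in limma 3.58.1 (R 4.3.3). Probes with a detection p under 0.05 on at least 3 of 6 arrays were tested by lmFit and eBayes (16214 probes), with Benjamini-Hochberg adjustment over all of them and calls at an adjusted p under 0.05. This called 261 probes (1.61%). A gene was represented by its brightest tested probe, which gave 11979 genes. Median signal per array was between 111 and 129, and 34.2% to 38.4% of probes exceeded background. The number of arrays limits the precision. The procedure was tested on simulated data.

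The 10 genes, the pathway and marker lists and the tests were chosen with earlier results of these data known. Named were all 10 genes, called pathway genes, the highest and lowest gene above background on all 6 arrays in each pathway list, red cell markers above background, the 3 brightest markers of other cells and the 5 genes most correlated with the globins. *Hmox2*, *Cd163*, *Hamp*, *Hbb-b2*, *Elane*, *Mmp8*, *Ctsg*, *Mpo*, *Oscar*, *Itga2b*, *Pdpn* and the red cell markers at background were named after their values were seen. Alternatives were other background corrections, normalizations, detection filters and probe rules, a test against a fold change of 1.2, the replicate number as a block and each array left out. Differential scores of the authors were not analysed here. The brightest markers of B lymphocytes and endothelium and some other genes that these rules name are not reported here.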

Additional observations from a re-analysis of the deposited data

How the results depend on the processing

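The globins stayed lower with PTH under all alternatives. *Hba-a1* differed by -1.88 with quantile normalization alone and by -1.83 with median scaling, and *Hbb-b1* by -1.71 with median scaling and -1.70 as the mean of its tested probes. With 1 array left out, *Hba-a1* ranged from -2.02 to -1.92 and *Hbb-b1* from -1.97 to -1.81. Median scaling moved the median of all genes to 0.12 and the share of higher calls from 38.3% to 55.8%, and *Alas1* then differed by 0.28, *Tfrc* by 0.15, *Ftl1* by 0.08 and *Slc40a1* by -0.30. With quantile normalization alone 4 of the 10 genes, *Hmox1* and *Slc40a1* besides the globins, were within the call limit in place of 2. With an offset of 50 there were 3, *Slc40a1* besides the globins. These 2 settings took in more probes in general, 725 and 502 of 16214, against 261 (1.61%) in the main fit. In each fit with 1 array left out 2 of the 10 genes were within the limit.

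Of all probes 261 were called, against 725 with quantile normalization alone, 502 with an offset of 50, 138 with median scaling, 422 with a detection p under 0.01 on all 6 arrays, 90 against a fold change of 1.2 and 71 to 108 with 1 array left out. The 3 pathway calls became 0 with median scaling, against a fold change of 1.2 and in each fit with 1 array left out (0 to 0). With median scaling the limma adjusted p was 0.168 for *Hp*, 0.418 for *Lcn2* and 0.769 for *Ltf*. Over all 16 alternatives it was under 0.05 in 7 for *Hp*, 7 for *Lcn2* and 4 for *Ltf*. The cause was not tested.

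Arrays with the same replicate number correlated in their deviations from the group means by 0.07, 0.06 and 0.27. Control array 1 correlated about equally with PTH array 1 (0.067) and PTH array 2 (0.073). Control array 3 correlated at 0.27 with PTH array 3 and at -0.13 with PTH arrays 1 and 2. By number, 34.8%, 36.3% and 38.4% of probes exceeded background in control and 34.2%, 36.1% and 38.4% with PTH. Neither labels nor methods say whether equal numbers mark pairs, and these values do not settle it. The main fit took no pairs. With the replicate number as a block 64 probes and 0 pathway genes were called, with limma adjusted p of 0.0805, 0.0662 and 0.0876 for *Hp*, *Lcn2* and *Ltf*. Signal close to background limits what the probes of *Alas2*, *Fech* and the red cell markers can show.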
